A study of Rattus norvegicus with 12 samples.

Results

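Heat shock chaperones were followed in whole testis of male Sprague Dawley rats under daily restraint and ice-water swimming. Of the 578 germ cell markers that the study's marker table lists with expression values, the 8 whose rat symbol begins with Hsp or Dnaj were taken. The rule used the symbol and no expression value, but it was set with earlier results of these data known. Hspa5 is listed there as a spermatogonia marker and Hspa2 as a spermatocyte marker. Hspa1l, Dnaja4, Dnajb7, Dnajb8, Dnajb13 and Dnajc5b are listed as spermatid markers. All 8 were found among the 31715 transcripts of the deposited tables and all 8 passed the filter on low counts.

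The 12 libraries came from 4 groups of 3 testis samples, all from rats of the SD strain labelled as 8 weeks old. The control rats were not stressed but went without food and water for as long as the stressed rats did, and the labels do not say for how many days. The paper describes controls for every duration, but the labels give a single control group. The other groups underwent RS+IS, restraint stress followed by a swim in ice water, for 3, 14 or 21 days. By the paper's methods, testes were removed an hour after RS+IS. Against control, the last session and the duration of stress cannot be told apart here. If the labelled age is that before treatment, rats stressed for longer were older when sampled. Duration and age then change together in comparisons among the stress groups, and possibly in those with control. The part of age was not tested. The control rats are described as wild type. The groups hold 3 biological replicates each, and the sources used here do not say whether a sample was 1 rat. A level in whole testis depends on both the number of cells of a type and the RNA in each of them, and fewer cells and less RNA per cell cannot be told apart here.

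Hsp70 chaperones hold unfolded stretches of other proteins and release them through a cycle of ATP hydrolysis, and proteins with a J domain (the Dnaj family, or Hsp40) deliver substrates and start that cycle. In the testis the family changes along spermatogenesis. Hspa2 is made by spermatocytes and is needed for meiosis to finish in male mice, and Hspa1l is an Hsp70 of spermatids. Hspa5, also called BiP, is the Hsp70 of the endoplasmic reticulum in all cells and is the classical target of the unfolded protein response. That response acts through the endoplasmic reticulum stress element, whereas the heat shock response of the cytosol acts through the heat shock element.

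The promoters of 7 of the 8 genes were held in the RefSeq table of the GRCr8 build, as 250 bases before to 50 bases after the start. They are shown for 3 genes because these are the ones that held a searched motif, with the motif bases in capitals and each strand read in the direction of the gene. The whole window is printed for Hspa5, and for Hspa1l and Dnaja4 only the 85 and 111 bases around the motifs. The stress element (CCAAT, 9 free bases, CCACG) was found in Hspa5 alone of the 7, from 43 to 25 bases before the start. Of 33469 rat promoter windows of this length, 22 (0.0657%) held it on either strand. The short element TGACG, the shared core of ATF and CREB sites, was held by 21.2% of windows, among them those of Hspa5, Hspa1l and Dnaja4.
Hspa5, chr3:38452766-38453065 (plus strand): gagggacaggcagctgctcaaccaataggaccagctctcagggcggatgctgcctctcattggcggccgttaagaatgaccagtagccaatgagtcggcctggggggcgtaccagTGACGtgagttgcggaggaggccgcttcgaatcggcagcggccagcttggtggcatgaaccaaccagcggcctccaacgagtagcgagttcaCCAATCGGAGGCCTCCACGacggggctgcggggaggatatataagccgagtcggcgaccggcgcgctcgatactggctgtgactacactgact
Hspa1l, chr20:3860263-3860347 (minus strand): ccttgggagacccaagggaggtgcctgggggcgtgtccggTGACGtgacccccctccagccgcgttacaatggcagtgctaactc
Dnaja4, chr8:63981464-63981574 (plus strand): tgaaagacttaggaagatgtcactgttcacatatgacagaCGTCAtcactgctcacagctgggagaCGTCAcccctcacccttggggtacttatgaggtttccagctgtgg
In Dnaja4 the 2 copies lie on the opposite strand and read CGTCA. For the heat shock element only the arrangement GAANNTTC of its core was searched. That arrangement was in none of the 7 windows and in 8.59% of all windows. The opposite order of the same units was not searched, so these values do not show that the 7 windows lack the element. The full cAMP element TGACGTCA was in none of the 7 and in 1.83% of all.

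Before the comparisons, 1 library stood apart. Control library 1 had the highest Hspa5 level of all 12 libraries and, among the controls, the lowest level of Hspa2 and of each of the 6 spermatid chaperones. The mean log2 CPM of the 11 other spermatogonia markers tested was 4.57 in it and 4.24 and 4.27 in the other two controls, and that of the 378 other spermatid markers was 6.98 against 7.20 and 7.13. The value of each chaperone against control is therefore also given without it. Total estimated counts ranged from 23908048 to 29404590 per library, and the 8 chaperones held between 0.438% and 0.480% of them. The lowest count of any of the 8 in a library was 3220.

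Levels between genes were compared as TPM, which is relative to length. In the control libraries Hspa2 was the most abundant, with a TPM of 931 ± 31.9 (SD, n = 3), and Dnajb13 the least, with 69.8 ± 2.57. Between them came Dnajb8 with 444 ± 42.2, Dnajc5b with 388 ± 27.7, Hspa1l with 385 ± 45.3, Hspa5 with 310.0 ± 40.6, Dnaja4 with 284 ± 25.1 and Dnajb7 with 266 ± 30.1. Hspa2 lay above every other member and Dnajb13 below every other member in all 3 control libraries. The 6 members between them form a continuous run, in which the control libraries of each neighbouring pair overlapped. Hspa5 lay above Dnaja4, the next below it in this order, in only 3 of the 12 libraries.

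Hspa5, the chaperone of the endoplasmic reticulum, had its lowest mean level after 21 days of stress. It stood at 722, 612 and 611 CPM (counts scaled to a common library size with TMM factors) in the control libraries and at 593, 602 and 595 CPM after 3 days. It stood at 565, 599 and 518 CPM after 14 days and at 556, 558 and 524 CPM after 21 days. In CPM every stressed library lay below every control library, and the 3-day libraries were nearly equal, with a SD of 4.48 CPM. In TPM the controls (357, 284 and 289) overlapped with the 3-day libraries (291, 293 and 290) and with 14-day library 2 (289). The 21-day libraries lay below every control library in TPM too. The exact permutation test below used log2 CPM. In edgeR's quasi-likelihood test Hspa5 differed from control by a log2 fold change of -0.12 ± 0.081 (standard error) after 3 days, -0.22 ± 0.091 after 14 days and -0.26 ± 0.086 after 21 days. The unadjusted p was 0.17, 0.0486 and 0.0207, and the p adjusted over all features 0.985, 0.409 and 0.276. With the 14-day and 21-day libraries together against control, Hspa5 stood at 0.846 times the control level (log2 fold change -0.24 ± 0.066, p = 0.00456, adjusted p = 0.0888, exact permutation p = 0.0238, the smallest that 6 against 3 libraries allow). DESeq2 gave an adjusted p of 0.0443 for the 21-day comparison and 0.0109 for the combined one. Without control library 1 the log2 fold change became -0.035 after 3 days, -0.12 after 14 days (adjusted p = 0.526), -0.17 after 21 days (adjusted p = 0.345) and -0.14 for both together (adjusted p = 0.275), all in edgeR. The last 2 stayed past an unadjusted p of 0.05 and the 14-day value did not.

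**Figure D1:**
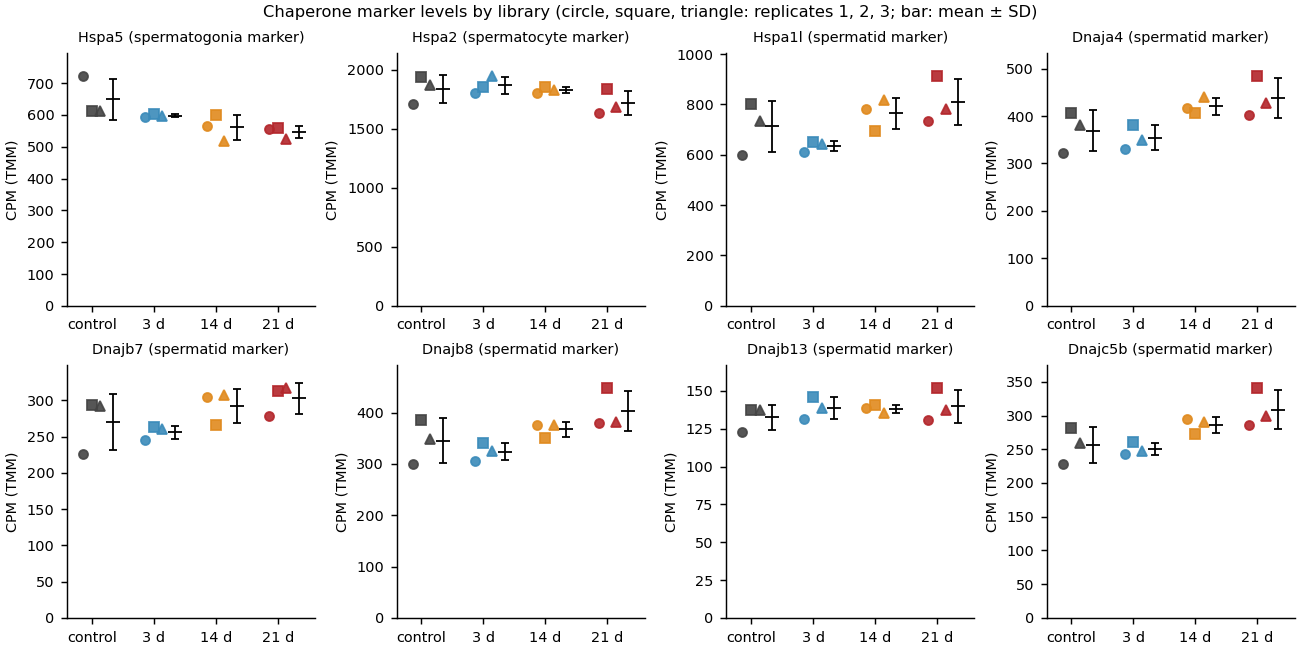
Level of each chaperone marker in CPM after TMM scaling (vertical axis) in the 12 libraries by group (horizontal axis: control and 3, 14 and 21 days of RS+IS), with the symbol giving the replicate number and the bar the mean ± SD of 3. Hspa5 sits between 518 and 602 CPM in the stressed libraries and at 611 CPM or more in the controls, while the 6 spermatid chaperones have their highest means after 21 days.

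Of the 11 other spermatogonia markers tested, 4 were lower and 0 higher at an unadjusted p under 0.05 after 21 days (36.4%, against 14.2% of all features), and their median log2 fold change was -0.37. After 14 days 3 were lower and 0 higher (27.3%, against 12.1% of all features), with a median of -0.26. The medians were -0.23 and -0.13 without control library 1. Set against the mean log2 CPM of these 11 in the same library, Hspa5 stood at 4.98 ± 0.047 (SD, n = 3) in control, 4.92 ± 0.086 after 3 days, 5.02 ± 0.12 after 14 days and 5.04 ± 0.085 after 21 days. The 14-day and 21-day libraries lay 0.078 above the control and 3-day libraries on this log2 scale (two-sided exact permutation p = 0.128, 6 against 6). With the class median in place of its mean the difference was 0.17 (exact p = 0.0346). On both scales the difference was above 0. Control library 1, which had the highest Hspa5 CPM, was at 4.93 on the relative scale, the lowest of the 3 controls.

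Over the 12 libraries the 5 markers whose log2 CPM followed that of Hspa5 most closely, of the 574 other matched markers with a level, were Cited1 (Pearson r = 0.844), Nucks1 (r = 0.774), Tcp1 (r = 0.676), Tex19.1 (r = 0.674) and Cdk2ap2 (r = 0.664). These coefficients describe libraries that share their scaling and groups. Of these, 4 are listed as spermatogonia markers. Tcp1, a subunit of the cytosolic chaperonin, is listed as a spermatocyte marker.

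Hspa2, the Hsp70 of meiotic cells, stood at 1711, 1941 and 1869 CPM in control and at 1804, 1857 and 1948 CPM after 3 days. It stood at 1808, 1856 and 1828 CPM after 14 days and at 1636, 1834 and 1689 CPM after 21 days. The groups overlapped throughout, and 2 of the 3 libraries of the 21-day group lay below every library of the other groups. Its log2 fold change against control was 0.02 ± 0.07 after 3 days, -0.013 ± 0.066 after 14 days and -0.11 ± 0.086 after 21 days (edgeR, adjusted p = 0.995, 0.944 and 0.585). With control library 1 left out these values were -0.026, -0.056 and -0.16 (edgeR adjusted p = 0.934, 0.587 and 0.423). Against the 3-day group, Hspa2 stood at 0.902 times the level after 21 days (log2 fold change -0.15 ± 0.058, edgeR adjusted p = 0.275), which passed an unadjusted p of 0.05. The median of the 178 other spermatocyte markers was -0.062 after 21 days against control, where 16 were lower and 0 higher at an unadjusted p under 0.05 (8.99% of them, against 14.2% of all features). That median was -0.12 without control library 1. Of its 2 transcripts, ENSRNOT00000008504.5 held between 97.1% and 97.8% of the counts.

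The 6 chaperones of spermatids are an Hsp70 and 5 proteins with a J domain. Hspa1l, the Hsp70 among them, stood at 599.8, 802 and 735 CPM in control and at 611, 649 and 642 CPM after 3 days. It stood at 781, 696 and 816 CPM after 14 days and at 735, 913 and 782 CPM after 21 days. The 3-day libraries lay between control library 1 and the other controls, and below every library of the later groups. The log2 fold change against control was -0.17 ± 0.10 after 3 days, 0.096 ± 0.12 after 14 days and 0.18 ± 0.13 after 21 days (edgeR, adjusted p = 0.985, 0.739 and 0.545). Against the 3-day group it was 0.26 ± 0.062 after 14 days (edgeR adjusted p = 0.236) and 0.33 ± 0.081 after 21 days (edgeR adjusted p = 0.176), and DESeq2 gave adjusted p-values of 0.00452 and 0.0056. Without control library 1, the 3-day value against control was -0.28 ± 0.052 (edgeR adjusted p = 0.434, past an unadjusted p of 0.05) and the 14-day value -0.0063, on the other side of 0. The 21-day value against control was then 0.065 (edgeR adjusted p = 0.812). Also without that library, the median 3-day value of the 378 other spermatid markers was -0.10, and 32% of them passed an unadjusted p of 0.05.

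Dnaja4, a J domain protein that works with cytosolic Hsp70, stood at 322, 406 and 380.1 CPM in control and at 331, 382 and 350.2 CPM after 3 days. It stood at 416, 406 and 439.9 CPM after 14 days and at 402, 484 and 427 CPM after 21 days. All later libraries lay above all 3-day libraries, and the highest control library was level with the lowest later ones. Dnaja4 rose in the 14-day and 21-day libraries relative to the control and 3-day libraries, by 18.6% (log2 fold change 0.25 ± 0.062, edgeR adjusted p = 0.0339). Against control alone the log2 fold change was 0.18 ± 0.091 after 14 days (edgeR adjusted p = 0.46) and 0.24 ± 0.11 after 21 days (edgeR adjusted p = 0.381), and after 3 days it was -0.062 ± 0.096 (edgeR adjusted p = 0.986). When control library 1 was left out these were 0.099, 0.15 and -0.15 (edgeR adjusted p = 0.533, 0.538 and 0.728).

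Dnajc5b, a cysteine string protein of the J domain family, stood at 228, 281 and 259 CPM in control and at 243, 261 and 247 CPM after 3 days. It stood at 295, 272 and 290.4 CPM after 14 days and at 286, 341 and 299 CPM after 21 days. The 21-day libraries lay above every control library, while control library 2 lay within the 14-day range. Dnajc5b rose in the 14-day and 21-day libraries relative to the control and 3-day libraries, by 17.5% (log2 fold change 0.23 ± 0.058, edgeR adjusted p = 0.032). Against control alone it was 0.15 ± 0.084 after 14 days (edgeR adjusted p = 0.487) and 0.26 ± 0.10 after 21 days (edgeR adjusted p = 0.327), and after 3 days it was -0.035 ± 0.081 (edgeR adjusted p = 0.99). Leaving out control library 1 made these 0.084, 0.18 and -0.11 (edgeR adjusted p = 0.623, 0.453 and 0.757), and the 21-day value no longer passed an unadjusted p of 0.05.

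These calls for Dnaja4 and Dnajc5b were the only ones at an adjusted p under 0.05 in edgeR's test, and both sit close to that threshold. Without control library 1 the log2 fold change was 0.21 for Dnaja4 (adjusted p = 0.0659) and 0.20 for Dnajc5b (adjusted p = 0.0628). Leaving out each of the 12 libraries in turn kept the call for 5 of 12 in Dnaja4 and for 5 of 12 in Dnajc5b. Where the call was lost, the adjusted p lay between 0.0588 and 0.0867 for Dnaja4 (without control 1, 3-day 1 or 3, 14-day 1 or 3, or 21-day 2 or 3). It lay between 0.0503 and 0.0795 for Dnajc5b (without control 1 or 3, any of the 3-day libraries, 14-day 1 or 21-day 3). The log2 fold change stayed between 0.20 and 0.28 for Dnaja4 and between 0.19 and 0.26 for Dnajc5b over these.

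Dnajb7 and Dnajb8, J domain proteins enriched in the testis, had their lowest means after 3 days. Dnajb7 stood at 226, 293 and 292 CPM in control, 246, 263 and 260.0 CPM after 3 days, 305, 266 and 308 CPM after 14 days and 278, 313 and 317 CPM after 21 days. Dnajb8, which is known to hold back protein aggregation, stood at 300.4, 386 and 349 CPM in control, 306, 340.4 and 325 CPM after 3 days, 375, 351 and 376 CPM after 14 days and 381, 448 and 381 CPM after 21 days. For both genes the later libraries lay above every 3-day library, and control library 1 was the lowest of all 12. Against the 3-day group, the 21-day log2 fold change was 0.21 ± 0.063 for Dnajb7 (edgeR adjusted p = 0.199). For Dnajb8 it was 0.29 ± 0.076 (edgeR adjusted p = 0.181). Against control, the 21-day values were 0.16 ± 0.12 for Dnajb7 and 0.22 ± 0.11 for Dnajb8 (edgeR adjusted p = 0.56 and 0.423). Without control library 1 the 3-day values against control were -0.19 for Dnajb7 and -0.18 for Dnajb8 (edgeR adjusted p = 0.548 and 0.683), both past an unadjusted p of 0.05. In that setting 118 of the 378 other spermatid markers were lower and 3 higher at that p, in all 32%, where 1474 of 21459 features passed. The 21-day values were then 0.038 for Dnajb7 and 0.12 for Dnajb8 (edgeR adjusted p = 0.855 and 0.611), and the 14-day values, 0.11 and 0.083 with all libraries, were 0.0018 and -0.00027.

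Dnajb13, a component of the radial spokes of the sperm flagellum, stayed within 0.072 of control on the log2 scale. It stood at 123, 137 and 138 CPM in control, 132, 146 and 139 CPM after 3 days, 139, 141 and 135 CPM after 14 days and 131, 152 and 137 CPM after 21 days. All 4 groups overlapped. The log2 fold change against control was 0.066 ± 0.067, 0.055 ± 0.063 and 0.072 ± 0.084 after 3, 14 and 21 days (edgeR adjusted p = 0.985, 0.728 and 0.708). It was 0.017, 0.01 and 0.017 without control library 1. The counts of Dnajb13, Hspa1l and Hspa2 were fractional in every library, so part of their reads was shared with other transcripts, and values of these 3 are uncertain to that extent.

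**Figure D2:**
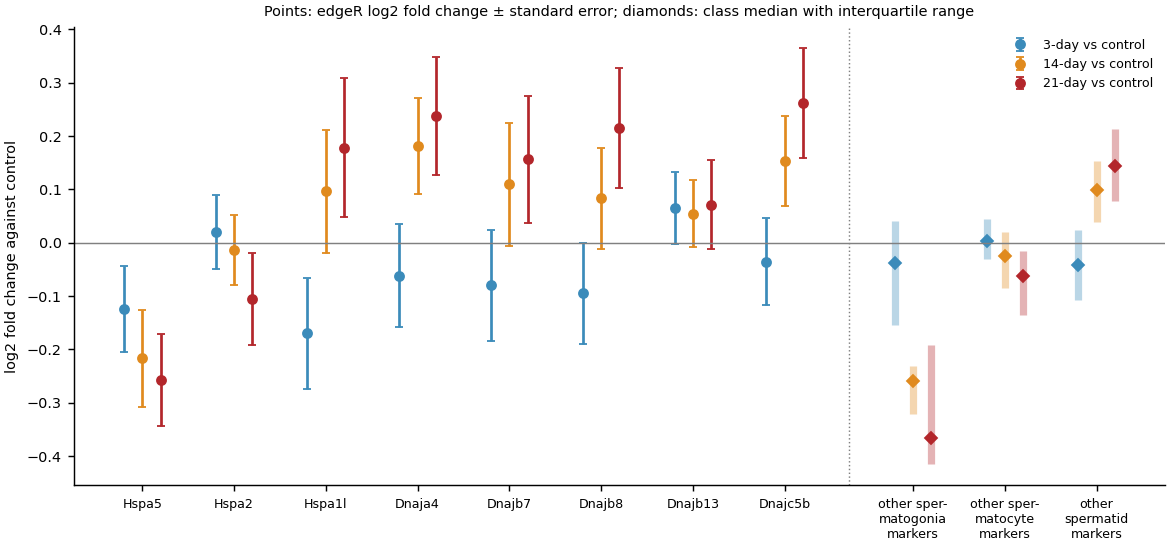
Log2 fold change against control (vertical axis) after 3, 14 and 21 days for the 8 chaperones as edgeR estimates ± standard error, and for the other markers of each class as medians with interquartile range on the right. The 3 comparisons share the control libraries. Hspa5 is at -0.26 and Dnajc5b at 0.26 after 21 days, and the class medians are -0.37, -0.062 and 0.14 for spermatogonia, spermatocyte and spermatid markers.

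Counted at an unadjusted p under 0.05 in edgeR's test, 0 of the 8 chaperones differed from control after 3 days, where 4.04% of all features did. After 14 days 1 of 8 did (Hspa5, lower), against 12.1% of all features, and after 21 days 2 of 8 did (Hspa5 lower, Dnajc5b higher), against 14.2%. These 3 comparisons share the control libraries. Against the 3-day group, 5 of 8 were higher after 14 days (13.4% of all features differed) and 7 of 8 differed after 21 days, 5 higher and Hspa5 and Hspa2 lower (16.6% of all features). The 5 higher ones are spermatid markers. Of the 378 other spermatid markers, 46.6% differed from the 3-day group after 14 days and 45.8% after 21 days. Between 14 and 21 days 0 of 8 differed, with 3.05% of all features. With the 14-day and 21-day libraries together, 3 of 8 differed from control (20.3% of all features) and 6 of 8 from the control and 3-day libraries (25.3%), namely Hspa5 lower and Hspa1l, Dnaja4, Dnajb7, Dnajb8 and Dnajc5b higher. In that last comparison 209 of the 378 other spermatid markers were higher and 3 lower, in all 56.1%. In the test over all 4 groups 5 of 8 passed (15.1% of all features).

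At an adjusted p under 0.05 the count was 2 of 8 for the 14-day and 21-day libraries against the control and 3-day libraries, with 7.28% of all features. It was 0 of 8 in each other comparison. The share of all features called there was 0% for 3 days against control, 14 days against control, 14 days against 3 days and 21 days against 14 days. It was 0.0189% for 21 days against control, 0.00471% for 21 days against 3 days, 1.62% for both later groups against control and 0.427% over the 4 groups. The median log2 fold change of the 8 was -0.071, 0.09 and 0.17 after 3, 14 and 21 days against control, and that of all features -0.0086, -0.012 and -0.0031.

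DESeq2 made more calls at an adjusted p under 0.05, over all features as well as among the 8. Against control it called 0 of 8 after 3 days (0.142% of all features), 0 after 14 days (1.25%) and 1 after 21 days, Hspa5 (2.66%). Relative to the 3-day group it called 3 of 8 after 14 days, Hspa1l, Dnaja4 and Dnajc5b (1.51%), and 6 of 8 after 21 days, namely Hspa5 lower and Hspa1l, Dnaja4, Dnajb7, Dnajb8 and Dnajc5b higher (2.81%). It called 0 of 8 between 14 and 21 days (0.0722%). For both later groups it called 1 of 8 against control, Hspa5 (5.93%), and 4 of 8 against the control and 3-day libraries, Hspa5, Dnaja4, Dnajb8 and Dnajc5b (9.73%). Over the 4 groups it called 2 of 8, Hspa5 and Dnajc5b (5.16%).

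Of the 378 other spermatid markers, 53 were higher and 1 lower at an unadjusted p under 0.05 after 21 days against control, in all 14.3%, close to the 14.2% of all features. Their median log2 fold change was 0.14. Without control library 1 it was 0.076, and 22 were higher and 0 lower, in all 5.82%, where 2739 of 21480 features passed. Against the 3-day group 171 were higher and 2 lower after 21 days, in all 45.8%, against 16.6% of all features. To compare each chaperone with its class, the mean log2 CPM of the other markers of the class was taken from its own log2 CPM in the same library. On this scale Dnaja4 stood at 1.42 ± 0.056 (SD, n = 3) in control, 1.39 ± 0.054 after 3 days, 1.51 ± 0.031 after 14 days and 1.51 ± 0.047 after 21 days. All 6 later libraries lay above the other 6, by 0.10 on average (two-sided exact permutation p = 0.00216, the smallest that 6 against 6 libraries allow). Dnajc5b stood at 0.892 ± 0.037, 0.895 ± 0.021, 0.951 ± 0.028 and 1.01 ± 0.041, a difference of 0.087 (exact p = 0.00433).

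Dnajb13 went the other way on the relative scale. It stood at -0.055 ± 0.043 in control, 0.045 ± 0.024 after 3 days, -0.097 ± 0.071 after 14 days and -0.13 ± 0.021 after 21 days. The 3-day libraries lay above every control library and the 21-day libraries below every control library (exact p = 0.10 for each, the smallest that 3 against 3 allow). Against control alone the later 6 libraries lay 0.059 lower (exact p = 0.143). Against the control and 3-day libraries together they lay 0.11 lower (exact p = 0.013). Leaving out any of the 12 libraries, or using the class median, kept the exact p of Dnaja4 between 0.00433 and 0.00649, of Dnajc5b between 0.00433 and 0.00866 and of Dnajb13 between 0.00433 and 0.0281. The same difference was 0.083 for Hspa1l (exact p = 0.113), 0.059 for Dnajb8 (exact p = 0.0974), 0.036 for Dnajb7 (exact p = 0.39) and -0.021 for Hspa2 (exact p = 0.284). This makes 8 chaperones in 8 comparisons, and these p-values were not adjusted.

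**Figure D3:**
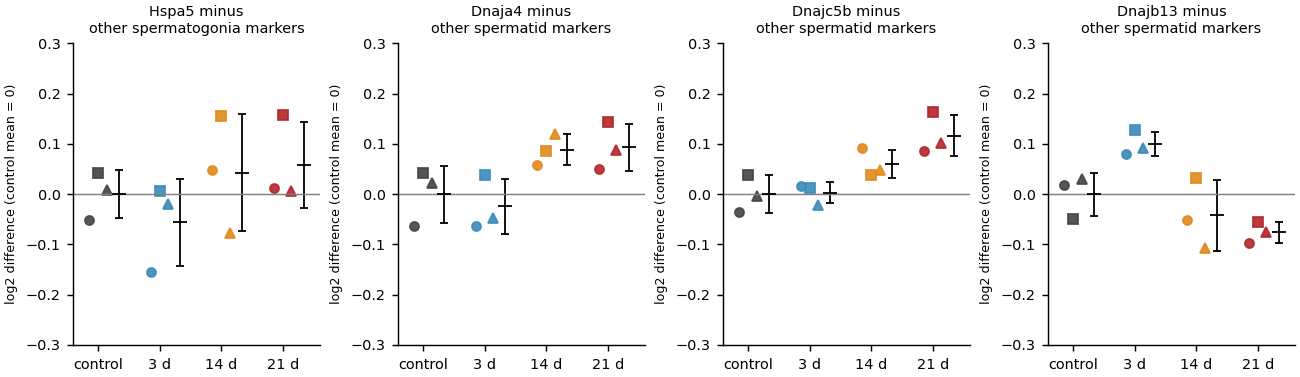
Log2 CPM of a chaperone minus the mean log2 CPM of the other markers of its class, set to 0 at the control mean (vertical axis), by group (horizontal axis), with the bar giving mean ± SD of 3 libraries. Dnaja4 and Dnajc5b lie higher after 14 and 21 days, Dnajb13 lies higher after 3 days and lower after 21 days than in control, and Hspa5 overlaps with control in all 3 stress groups.

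The 2 Hsp70 proteins of successive germ cell stages were compared within each library. The ratio of Hspa1l TPM to Hspa2 TPM does not depend on the scaling between libraries. It was 0.375, 0.443 and 0.421 in control and 0.362, 0.372 and 0.352 after 3 days. It was 0.465, 0.402 and 0.476 after 14 days and 0.482, 0.534 and 0.498 after 21 days. Every 3-day library lay below and every 21-day library above every control library (exact p = 0.10 for each, the smallest that 3 against 3 allow), and the 14-day libraries overlapped control. The ratio was 1.23 times as high in the later 6 libraries as in the control and 3-day libraries (exact p = 0.00649), and over the leave-one-out settings that exact p lay between 0.00433 and 0.013. Against control alone it was 1.15 times as high, with overlapping libraries (exact p = 0.0714). The pooled difference was 0.30 on the log2 scale. Over the same split the median log2 fold change was 0.15 for the other spermatid markers and -0.034 for the other spermatocyte markers. The part of these class shifts in the ratio was not tested. Of the 4 ratios computed, that of Hspa5 to Hspa2 was 0.334 ± 0.056 in control and 0.30 ± 0.018 after 21 days, with overlapping libraries (exact p = 0.50). The ratio of Hspa1l to Hspa5 was 1.27 ± 0.29 in control and 1.69 ± 0.18 after 21 days, and that of Dnajc5b to Hspa5 was 1.27 ± 0.23 and 1.79 ± 0.15. In both of these every 21-day library lay above every control library (exact p = 0.10 for each).

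**Figure D4:**
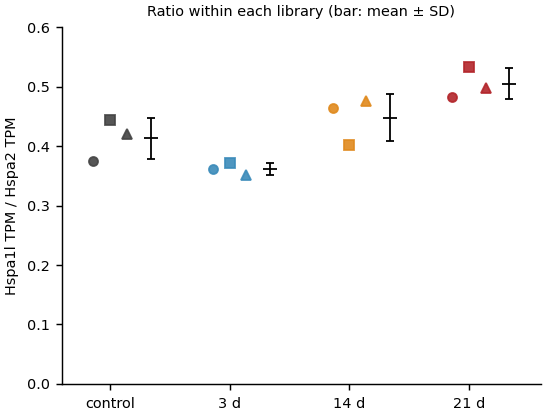
Ratio of Hspa1l TPM to Hspa2 TPM (vertical axis) in each library by group (horizontal axis), with the bar giving mean ± SD of 3. The 3-day libraries lie at 0.352 to 0.372 and the 21-day libraries at 0.482 to 0.534, on either side of the controls.

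Over the 12 libraries, the level of Hspa2 was followed most closely by Wbp11 (r = 0.937), Spdya (r = 0.887), Prc1 (r = 0.869), Pabpc6 (r = 0.866) and Shcbp1l (r = 0.866), all spermatocyte markers. That of Dnajc5b was followed by Arhgef6 (r = 0.979), Spata32 (r = 0.979), Fam71d (r = 0.974), Dnajb8 (r = 0.973) and Proca1 (r = 0.973), all spermatid markers. Dnaja4 came next in that order (r = 0.97), and Dnajb13 was further off (r = 0.629). These coefficients are descriptions of libraries with common scaling and groups.

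Other genes of protein folding were taken from the same marker list by function, 16 in all, and each was tested. After 21 days against control, 1 was higher and 0 were lower at an unadjusted p under 0.05 (14.2% of all features), and after 14 days 0 were (12.1%). The gene was Ube2g2, a ubiquitin-conjugating enzyme of the degradation pathway of the endoplasmic reticulum. It stood at 59.7, 68.2 and 67.0 CPM in control, 61.7, 61.3 and 63.6 CPM after 3 days, 72.8, 69.8 and 81.2 CPM after 14 days and 71.5, 87.6 and 75.9 CPM after 21 days. All later libraries lay above all control and 3-day libraries. Its log2 fold change was 0.26 ± 0.098 after 21 days against control (edgeR adjusted p = 0.308). For both later groups against the control and 3-day libraries it was 0.27 ± 0.058 (edgeR adjusted p = 0.0195). It was the 1 of 16 called there at an adjusted p under 0.05, near the share of all features (7.28%).

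The 6 folding factors of the endoplasmic reticulum (Clgn, Calr3, Pdilt, Creld2, Prdx4 and Tmx4) had a median log2 fold change of -0.0013 after 21 days against control. None of the 6 passed an unadjusted p under 0.05 in edgeR, where 14.2% of all features did, too few genes to tell from that share. Creld2, a gene known to respond to stress of this compartment, stood at 109 to 112 CPM in the 21-day libraries and at 107 to 112 CPM in control. It was named outside the rule for partner genes, and its level alone does not speak for the compartment. The 3 cytosolic chaperonin and prefoldin-like genes (Tcp1, Cct6b and Uri1) had a median of -0.10. The 4 genes of endoplasmic reticulum quality control and its response (Herpud1, Herpud2, Creb3l4 and Ube2g2) had a median of 0.22. These 4 are listed as spermatid markers, and the median of the 378 spermatid markers outside the chaperones was 0.14. The 3 heat shock factor related and disaggregase genes (Hsbp1, Hsfy2 and Clpb) had a median of 0.10. Uri1 was the lowest of the 16 after both 14 and 21 days, with -0.12 and -0.26 (edgeR adjusted p = 0.614 after 21 days), and Creb3l4, a transcription factor anchored in the endoplasmic reticulum, was the highest after 14 days with 0.33, at a level of 4.39 to 7.58 CPM. Herpud1, another target of the unfolded protein response, was singled out after its values were seen. It stood at 141, 169 and 163 CPM in control and at 128, 136 and 135 CPM after 3 days, with all 3-day libraries below control (log2 fold change -0.25 ± 0.075, edgeR adjusted p = 0.985), a difference past an unadjusted p of 0.05. It stood at 159, 152 and 159 CPM after 14 days and 159.7, 176 and 167 CPM after 21 days. It lay above the 3-day group by 0.23 ± 0.046 on the log2 scale at 14 days (edgeR adjusted p = 0.20) and by 0.31 ± 0.055 at 21 days (edgeR adjusted p = 0.158). Of the 16 partner genes, 5 were higher and 0 lower against the 3-day group after 14 days at an unadjusted p under 0.05 (13.4% of all features). After 21 days the same 5 (Calr3, Herpud1, Herpud2, Ube2g2 and Clpb) were higher and Tcp1 was lower (16.6% of all features), and these too were named after their values were seen. These 5 are listed as spermatid markers. Of the 378 spermatid markers outside the chaperones, 46.6% differed from the 3-day group at that p after 14 days and 45.8% after 21 days, nearly all higher.

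**Figure D5:**
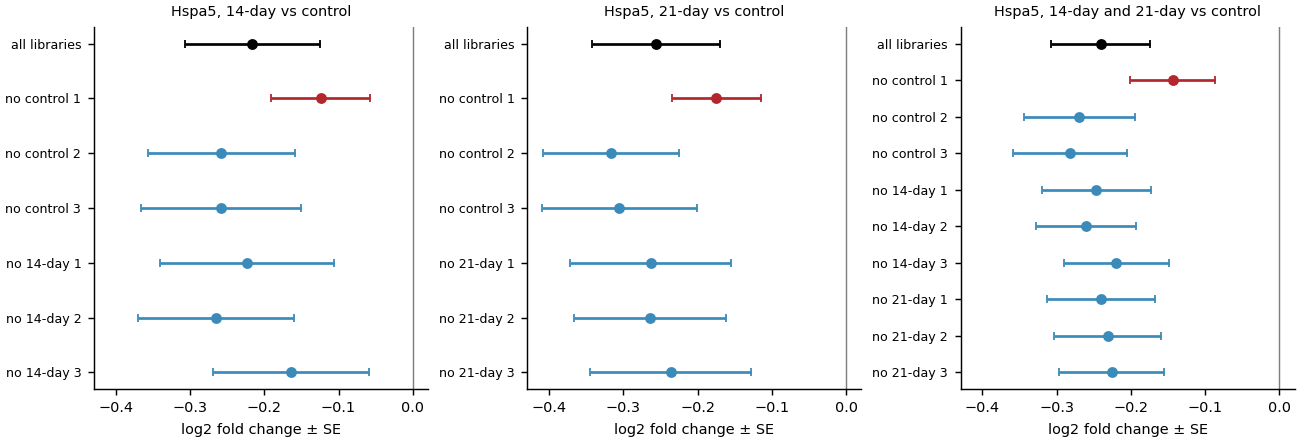
Log2 fold change of Hspa5 (horizontal axis, edgeR estimate ± standard error) against control for 14 days, 21 days and both together, with all libraries (black) and with each library left out in turn (vertical axis). Leaving out control library 1 (red) gives the smallest difference in each of the 3 comparisons, -0.12, -0.17 and -0.14, and all estimates stay below 0.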

How the data were processed

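Total RNA of 12 rat testis samples was depleted of ribosomal RNA and sequenced from directional libraries. The methods name Trimmomatic, HISAT2 with Rnor_6.0, HTSeq-count and DESeq2, with no versions. Each deposited table holds, for every Ensembl transcript, its length and effective length, the estimated count and the TPM. Those tools do not write this layout, so the quantifier is not given in the sources used here. The authors' TPM values are relative to effective length and to the library.

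The tables name no genes. The markers were found as the row or run of neighbouring rows whose estimated counts summed to the study's marker table in all 12 libraries within 0.51 counts, which matched 575 of 578. Counts of a gene were summed and rounded, and other transcripts stayed single, giving 31519 features. Each comparison was fitted on its own libraries with edgeR 4.0.16 (R 4.3.3), using TMM factors, filterByExpr and the quasi-likelihood test, with Benjamini-Hochberg adjustment over all features. The standard error is the log2 fold change over the square root of F. Log2 CPM used a prior count of 2. Single values were tested by two-sided exact permutation over libraries (the smaller tail doubled). Fits and the permutation test were tried on simulated data, and the matching on runs of rows of the deposited counts, summed and sought again. DESeq2 1.42.0, Python 3.11.15 and pandas 2.3.3 were also used.

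The chaperones, the 16 partner genes and the tests were chosen with earlier results of these data known. All 8 chaperones are named. Of the partner genes those with an unadjusted p under 0.05 against control after 14 or 21 days and the highest and lowest are named, and for 3 chaperones the 5 markers of highest correlation. Creld2, Calr3, Herpud1, Herpud2 and Clpb were described outside this rule. A wider chaperone list and somatic cell markers were not used here, since the transcripts could not be named outside the study's markers. Promoters are from RefSeq, GRCr8, another build than that of the counts. Alternatives tried were RLE factors, total count scaling, TMM factors from features outside the markers, no filter, at least 10 counts in every library, all 12 libraries in 1 fit, a replicate block, DESeq2, TPM, single Hspa2 transcripts and each library left out. Class medians without control library 1, and the leave-one-out and class-median settings of the relative levels and ratios, were added after seeing the data.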

Additional observations from a re-analysis of the deposited data

Results flagged for a closer look

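In 3 spermatid chaperones every 3-day library lay below the control mean while every library of a later group lay above it. The difference between those groups, tested in edgeR, did not pass adjustment over all features. For Hspa1l the log2 fold change of 21 days against 3 days was 0.33 (adjusted p = 0.176), and for Dnajb7 it was 0.21 (adjusted p = 0.199). For Dnajb8 it was 0.17 for 14 days against 3 days (adjusted p = 0.271) and 0.29 for 21 days against 3 days (adjusted p = 0.181). DESeq2 put the adjusted p of the 21-day differences at 0.0056 for Hspa1l, 0.0411 for Dnajb7 and 0.0132 for Dnajb8. Control library 1, which pulls the control mean down for all 3 genes, was the lowest control in each, and its part in the pattern was not tested beyond leaving it out.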

How the results depend on the processing

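Counts here are chaperones of 8 at an unadjusted p under 0.05 in edgeR. After 14 days against control the count was 1, and it was 0 with RLE factors, TMM factors from features outside the markers, at least 10 counts in every library or the replicate block, and 2 with total count scaling. After 21 days against control it was 2, and 5 with total count scaling, 6 with the replicate block and 4 with all 12 libraries in 1 fit. For 14 days against 3 days the single fit gave 3 in place of 5. For 21 days against 14 days total count scaling gave 1 in place of 0, and for the 4 groups TMM factors from outside the markers gave 3 in place of 5. Leaving out each library in turn gave 0 to 3 for each of the 3 comparisons with control, 0 to 1 for 21 days against 14 days, 1 to 4 for both later groups against control and 2 to 6 for the 4 groups. The cause was not tested.

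The log2 fold change of Dnajb13 for 21 days against 3 days was -0.017 and became 0.0063 with RLE factors, 0.0041 with no filter, 0.0017 with DESeq2 and 0.011 in the single fit. Over the libraries left out it ranged from -0.068 to 0.058, and for 14 days against 3 days from -0.048 to 0.023. Against control after 3 days the ranges were -0.026 to 0.056 for Hspa2, -0.15 to 0.0069 for Dnaja4 and -0.11 to 0.033 for Dnajc5b. After 14 days they were -0.056 to 0.024 for Hspa2, -0.0063 to 0.19 for Hspa1l and -0.00027 to 0.17 for Dnajb8. The minor Hspa2 transcript ENSRNOT00000079359.1 alone gave 0.074 for 14 days against control. Hspa5, Dnajb7 and the ratio of Hspa1l to Hspa2 kept their direction in every setting run for the comparisons reported.

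Without a filter the adjusted p of Dnaja4 and Dnajc5b for both later groups against the control and 3-day libraries was 0.059 and 0.0554, and in the single fit that of Dnaja4 was 0.0558. Replicate numbers are shared between groups. After the group means were removed, libraries of the same number correlated between -0.122 and 0.225 over 18 pairs, with 5 over 0.1, and a library was closest to its own number in 15 of 36 searches, so the numbers were not taken as pairs. With 3 libraries a group, a difference must be large to pass adjustment over all features.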
